A study of Mus musculus with 4 samples.

Results

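Interferon-stimulated cells were picked out of sorted mouse Treg cells (regulatory T cells) by their own transcripts. A cell barcode entered the class when it had 500 or more genes, 10% or less mitochondrial UMIs (unique molecular identifiers, 1 per captured transcript), at least 1 UMI of Cd3e, Cd3d or Cd3g, and 3 or more UMIs summed over Ifit1, Ifit3, Ifit3b, Rsad2 and Cmpk2. The rule found 359 cells among 20109 T cell barcodes that passed the same filter, and among 24546 barcodes in all. They were compared within each library with the 18146 T cells that had 0 UMIs of these 5 genes, called 0-UMI cells here. The remaining 1604 T cells, with 1 or 2 UMIs, belonged to neither class.

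The study profiled liver and spleen Treg cells of C57BL/6 Foxp3-GFP mice aged 12 days or 7 weeks by single-cell sequencing of 5′ transcript ends on the 10x platform. CD4+ cells were enriched on magnetic beads and CD4+ Foxp3GFP+ cells were then sorted, so the GFP that chose the cells reports Foxp3, the lineage factor of Treg cells. The 12-day mice carried a Foxp3-driven GFP-Cre together with a Rosa26 YFP reporter behind a loxP-flanked stop, and the labels do not give that genotype for the 7-week mice. Each age and tissue had 1 library, and the number of mice in a library was not given, so shares and levels of single libraries carry counting intervals and no test of age or tissue. Only the contrast between cell classes within a library was tested, and its size was compared between ages and between tissues with 2 libraries a side.

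Interferons are cytokines that put cells into an antiviral state. Type I interferons bind the receptor chains IFNAR1 and IFNAR2, and the kinases JAK1 and TYK2 then activate STAT proteins, among them STAT2, which act with IRF9 and bind an element that starts with GAAA and, past any 2 bases, ends with GAAA. Interferon gamma acts through IFNGR1, IFNGR2, JAK1 and JAK2, and leads to binding at sites that include TTCNNNGAA. Among the target genes, the IFIT proteins bind foreign RNA, Rsad2 encodes viperin, which makes a chain-terminating nucleotide, and Cmpk2 is the nucleotide kinase that neighbours it. In T cells the same programme also raises MHC class I and its loading machinery, and PD-L1.

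The promoters of the marker genes show the element in writing. Ifit3, Ifit3b and Ifit1 lie in 1 cluster on the plus strand of chromosome 19 (GRCm38 34583531 to 34588731, 34607970 to 34613401 and 34640871 to 34650009), with Ifit1bl1 on the minus strand between the Ifit3 and Ifit3b genes. Rsad2 and Cmpk2 lie head to head on chromosome 12, Rsad2 on the minus strand from 26442746 to 26456452 and Cmpk2 on the plus strand from 26469204 to 26479837. The stretches upstream of the transcription start are printed 5′ to 3′ on the gene's strand, from RefSeq promoters of GRCm38.p6, and capitals mark matches of that element (GAAA, any 2 bases, GAAA) on either strand. Isg15, which had the highest log2 ratio of the called genes with 100 or more UMIs, is set beside them.
Ifit1, chr19:34640765-34640833, plus strand: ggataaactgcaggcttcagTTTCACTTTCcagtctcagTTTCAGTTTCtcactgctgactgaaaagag
Ifit3, chr19:34583360-34583429, plus strand: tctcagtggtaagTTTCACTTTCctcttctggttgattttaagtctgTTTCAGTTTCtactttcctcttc
Ifit3b, chr19:34607756-34607825, plus strand: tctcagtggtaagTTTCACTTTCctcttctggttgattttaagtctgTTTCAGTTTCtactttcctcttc
Rsad2, chr12:26456533-26456602, minus strand: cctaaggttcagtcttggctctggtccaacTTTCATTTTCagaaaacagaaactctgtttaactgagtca
Isg15, chr4:156200851-156200920, minus strand: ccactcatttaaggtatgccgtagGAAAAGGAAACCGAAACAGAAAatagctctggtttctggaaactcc
The Ifit1 stretch holds 2 matches 9 bases apart, the Ifit3 stretch 2, and the Isg15 stretch 3 that overlap. The printed stretches of Ifit3 and Ifit3b are the same letters, and over the compared part of their promoters 201 of 268 bases were identical. The transcripts of this pair are near copies too, so the authors' counting may have split or dropped their reads. No match lay in the 300 bases taken for Cmpk2.

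The 4 libraries held between 2395 and 6120 T cells, with median UMIs per T cell from 2678 in 7-week liver to 4565.5 in 12-day spleen. Pairs of libraries shared 18 to 54 T cell barcodes, and no shared barcode was in the class in both. Doublet calling by Scrublet's own threshold marked 0, 0, 2 and 0 cells and had not worked; by a rate of 0.8% per 1000 cells, 3, 0, 1 and 2 class members were marked. A single member of 12-day spleen carried 78.4% haemoglobin UMIs, and no other member of any library had over 1%. Of the passing barcodes without a Cd3 UMI (29 to 58 per library), none had 3 or more marker UMIs, and their highest was 2.

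The class was made of cells with a broad span of marker UMIs, given here as a description since these values chose the cells. The median member had 7 marker UMIs in the 12-day liver library, 4 in the 12-day spleen library, 6 for 7-week liver and 5 for 7-week spleen, and the highest had 64. At the threshold, 101 of 359 members had exactly 3 UMIs, 15, 18, 27 and 41 in the 4 libraries in that order, and just below it 52, 50, 70 and 104 cells had 2. Only 46 members rested on 1 gene, 39 of them on Ifit1, and 36 had UMIs of all 5. Ifit1 had the most UMIs of the 5 in every library, at 804, 669, 1106 and 1035 CPM (UMIs per 1000000 UMIs of the class), and 85.7% to 97.4% of members had it. Cmpk2 was the least shared between libraries, found in 35.1% of 12-day liver members, 12.2% of 12-day spleen, 52.0% for 7-week liver and 37.8% for 7-week spleen. Members were 0.80% to 4.09% of T cells and held 72.7%, 88.5%, 81.1% and 65.4% of all Rsad2 UMIs. Of Ifit1 UMIs they held 66.2%, 46.1%, 71.4% and 58.0%, and of Cmpk2 UMIs 31.1%, 10.5%, 57.2% and 38.6%, so Cmpk2 lay mostly outside the class in 3 of 4 libraries.

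When the cells were chosen again without the gene to be measured, each marker gene still stood higher in the chosen cells of every library. Here members had 3 or more UMIs of the remaining markers, and Ifit3 and Ifit3b were left out together. Ifit1 stood at 851, 870, 1249 and 1207 CPM in these cells and at 6.71, 7.31, 25.2 and 20.2 CPM in the cells with 0 of the other markers. The groups did not overlap, and the log2 ratio was 6.42 ± 0.38, with an adjusted p of 0.00562. Here and below, ± gives an SE taken from the fit, the size of the log2 ratio divided by the square root of its F statistic. It is not the spread between the 4 libraries. Rsad2 stood at 107, 61.9, 310 and 194 CPM against 0.455, 0.228, 3.56 and 2.66, a log2 ratio of 6.93 ± 0.30. Cmpk2 gave the smallest, 4.63 ± 0.22, with 111, 20.0, 292 and 180 CPM against 3.61, 2.35, 11.4 and 7.89. Ifit3b gave 7.02 ± 0.43 and Ifit3 gave 6.84 ± 0.61. Rsad2, Cmpk2, Ifit3b and Ifit3 had means under 10 CPM in the comparison cells and passed the filter on low counts through the chosen cells alone, so their ratios are a description with no test. Also, cells with more UMIs enter such a class more easily: median UMIs of the 359-cell class were 4668, 4825, 3151.5 and 3323 against 4425, 4522, 2591.5 and 2889.5 in 0-UMI cells. With 0-UMI cells matched on UMIs the log2 ratios were 6.76 for Ifit1, 7.02 for Ifit3, 5.84 for Ifit3b, 6.23 for Rsad2 and 5.43 for Cmpk2.

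The cells carried T cell and Treg transcripts at levels near those of their neighbours, above them in some libraries and below them in others. The 5 T cell markers (Cd3e, Cd3d, Cd3g, Trac and Cd4) summed to 4226, 4491, 3277 and 3932 CPM in the class and to 4232, 4131, 3700 and 4087 CPM in 0-UMI cells. The 5 Treg markers (Foxp3, Il2ra, Ikzf2, Ctla4 and Tnfrsf18) summed to 2541, 1850, 1656 and 1567 CPM against 2169, 1814, 1815 and 1861. At 2000 UMIs per cell, Foxp3 was seen in 52.7%, 46.8%, 46.8% and 46.0% of members and in 54.6%, 51.2%, 53.6% and 51.8% of 0-UMI cells (unthinned 72.7%, 73.5%, 64.3% and 61.5% against 73.4%, 69.5%, 59.4% and 63.5%). Each member interval spans the 0-UMI value, so a difference in Foxp3 was not detectable with these numbers of cells. No cell type that should lack Foxp3 was set aside in these sorted libraries, so the share that free RNA would give was not measured.

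RNA of other lineages was present in both classes, and which class had more of it depended on the lineage and the library. The 8 macrophage and monocyte markers summed to 13.5 CPM in 12-day liver members (0-UMI cells 9.76), 85.9 in 12-day spleen (22.8), 0 for 7-week liver (5.50) and 2.05 for 7-week spleen (16.5). In 12-day spleen 4 of the 8 were at 0 in members, and in the others 5, 8 and 7 were. The 5 B cell markers summed to 485, 389, 536 and 507 CPM in members and 626, 411, 503 and 387 CPM in 0-UMI cells, with 2, 3, 2 and 1 of them at 0 in members. The 7 conventional dendritic cell markers summed to 76.4, 239, 113 and 65.7 CPM against 142, 114, 80.4 and 161, with 5, 4, 6 and 4 at 0. The 4 plasmacytoid markers summed to 2.25, 0, 25.5 and 10.3 CPM against 14.05, 8.13, 8.93 and 10.04, with 3, 4, 3 and 2 at 0. Members were thus above 0-UMI cells in macrophage and monocyte markers at 12 days and in B cell markers at 7 weeks. They were also above them in conventional dendritic markers in 12-day spleen and 7-week liver. Plasmacytoid markers were higher in members at 7 weeks, where the spleen values were nearly equal. Barcodes with 2 or more UMIs of other-lineage genes were 1, 5, 1 and 1 members (1.30%, 10.2%, 1.02% and 0.741%, against 2.01%, 3.51%, 1.31% and 1.37% of 0-UMI cells). The 5 erythroid markers of 12-day spleen members summed to 24113 CPM against 25.7, which is the haemoglobin-rich barcode. Their part in the results below was not tested apart from leaving these barcodes out: 307 genes were then called higher and 48 lower without other-lineage barcodes, and 300 and 41 without haemoglobin-rich ones, against 296 and 39 with all.

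The class was most frequent in 7-week liver and least frequent in 12-day spleen. It made up 77 of 5612 T cells in 12-day liver, 1.37% (exact Clopper-Pearson 95% interval 1.08 to 1.71). In 12-day spleen it was 49 of 6120, 0.80% (0.59 to 1.06). At 7 weeks it was 98 of 2395 in liver, 4.09% (3.33 to 4.96), and 135 of 5982 in spleen, 2.26% (1.90 to 2.67). None of the 4 intervals overlapped another, and all cover counting error only, with 1 library each. The liver share was 1.71 times the spleen share at 12 days (interval 1.20 to 2.45) and 1.81 times at 7 weeks (1.40 to 2.34). The 7-week share was 2.98 times the 12-day share in liver (2.22 to 4.0) and 2.82 times in spleen (2.04 to 3.9).

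The 12-day libraries were also the deeper ones, with medians of 4472 and 4565.5 UMIs per T cell against 2678 and 2949.5 at 7 weeks. After each cell was thinned to 2000 UMIs, with shallower cells left out, the shares were 0.799%, 0.320%, 3.34% and 1.68%. The order was the same and the 7-week to 12-day ratios were larger, 4.18 in liver (2.77 to 6.29) and 5.25 in spleen (3.12 to 8.83). At a threshold of 2 UMIs the shares were 2.30%, 1.62%, 7.01% and 4.0%, and at 5 UMIs 0.891%, 0.310%, 2.46% and 1.22%, in the same order again. The ages also differed in sex-linked RNA. Thinned to 2000 UMIs, 39.4% of 12-day liver and 37.4% of 12-day spleen 0-UMI cells had Xist, a female marker. At 7 weeks 17.9% and 18.2% had it. Y-linked genes were seen in 7.87% and 6.83% at 12 days and in 14.8% and 17.9% at 7 weeks. What sex adds to the age differences here and below was not tested.

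**Figure D1:**
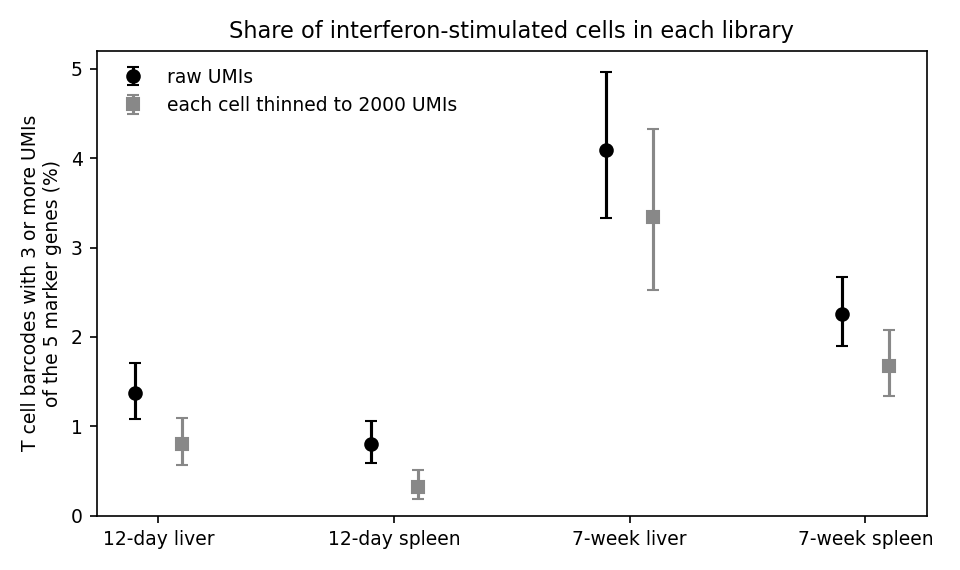
Share of T cell barcodes with 3 or more UMIs of the 5 marker genes (%, vertical axis) in each of the 4 libraries, with exact 95% binomial intervals, from raw UMIs (black circles) and after thinning each cell to 2000 UMIs (grey squares). The 7-week liver library is highest at 4.09% and the 12-day spleen library lowest at 0.80%, in the same order after thinning.

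Other interferon genes climbed step by step with the marker UMIs. The summed UMIs of 49 other interferon genes (the antiviral effectors, the ISG15 conjugation genes and the PARP and DTX3L genes named below, none of them in the rule) made up 0.554%, 0.530%, 0.780% and 0.680% of all UMIs in 0-UMI cells. Cells with 1 marker UMI already held 0.714%, 0.704%, 1.05% and 0.856%, and cells with 2 held 0.946%, 0.778%, 1.21% and 1.08%. At 3 UMIs, the first class admitted, the values were 1.14%, 1.06%, 1.71% and 1.32%. Cells with 11 or more marker UMIs (20, 5, 28 and 35 cells) reached 1.97%, 2.45%, 2.73% and 2.71%. In each library every step up in marker UMIs came with a step up in the other genes. Within single cells at 2000 UMIs, the median member had UMIs of 13, 11, 16 and 12 of the 49 genes and the median 0-UMI cell of 5, 5, 6 and 6. Members spread from 2 to 29 genes and 0-UMI cells reached up to 23, so the 2 classes overlapped cell by cell.

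**Figure D2:**
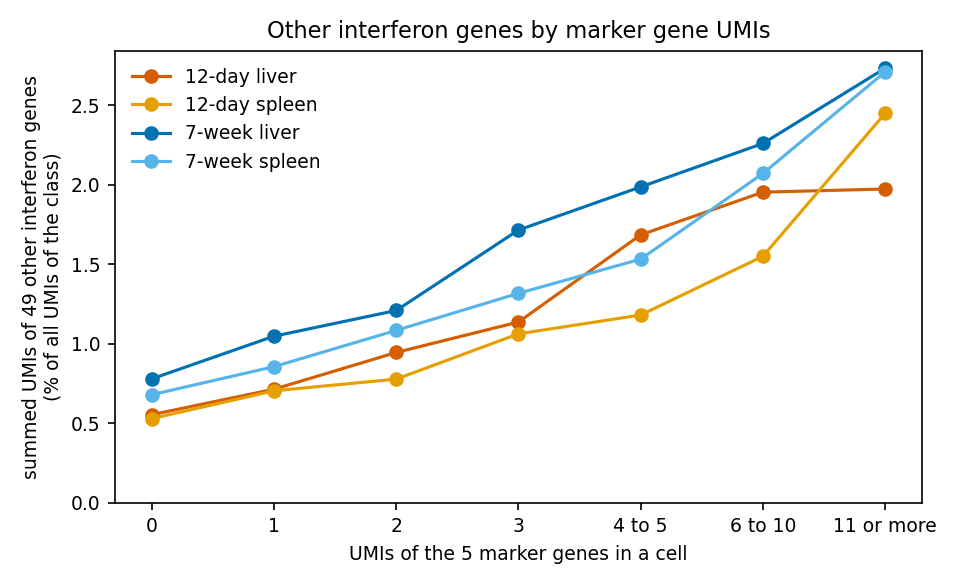
Summed UMIs of 49 other interferon genes as a percentage of all UMIs (vertical axis) in cells grouped by their UMIs of the 5 marker genes (horizontal axis, 0 to 11 or more), 1 line per library. All 4 lines climb at each step, from 0.53% to 0.78% at 0 UMIs to 1.97% to 2.73% at 11 or more.

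Across the transcriptome the class differed mostly by genes that were higher. UMIs were summed per library and class, and the 8 sums were fitted with edgeR's quasi-likelihood test with the library as a block; 7255 genes with a mean of 10 CPM or more were tested, the 5 marker genes not among them, and a gene was called at a Benjamini-Hochberg adjusted p of 0.05 or less. Higher calls numbered 296 (4.08% of genes tested) and lower calls 39 (0.538%). Of these, 268 were higher in the class in each of the 4 libraries and 38 lower in each of the 4. The median log2 ratio over all genes was -0.01. The higher calls were stable under most settings, from 227 to 319 in 16 of 17 alternatives, but 119 without the library block. The lower calls were not: 0 without the block, 17 with 0-UMI cells matched on UMIs and 96 without the filter on low counts. Interferon list genes made up 108 of the higher calls and 188 lay outside those lists.

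**Figure D3:**
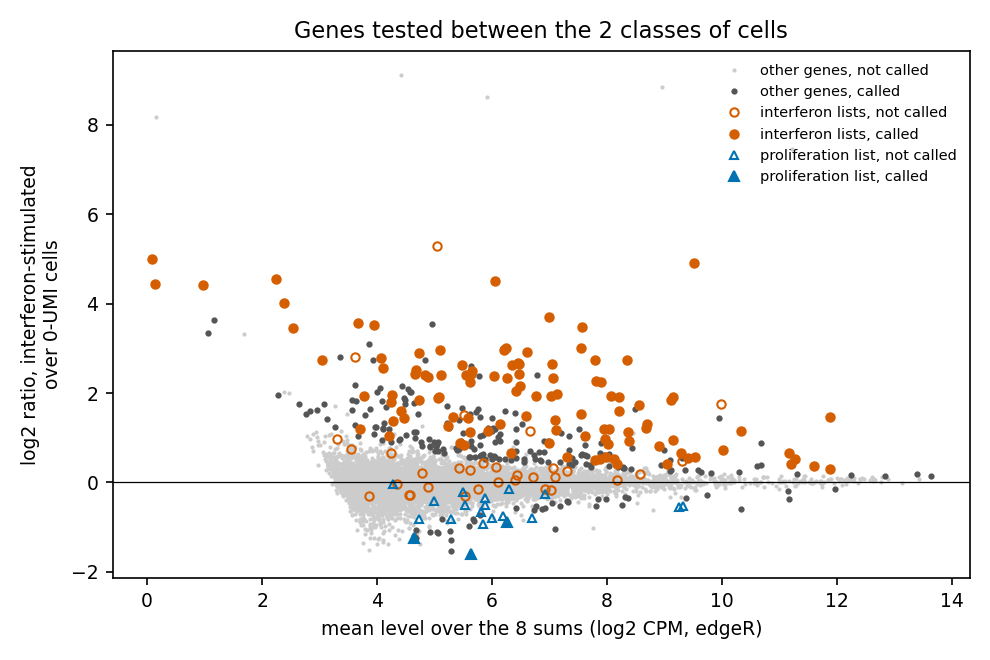
Each of the 7255 tested genes by its mean level over the 8 sums (log2 CPM, horizontal axis) and its log2 ratio, interferon-stimulated over 0-UMI cells (vertical axis); filled markers were called, orange marks the interferon lists and blue triangles the proliferation list. The 108 called interferon genes lie above 0 and the 3 called proliferation genes below it; the 5 uncalled grey points above a log2 ratio of 7 are haemoglobin genes and Alas2, set by 1 barcode of 12-day spleen.

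Taken over 14 lists of interferon genes, 140 of 180 named genes were tested, 108 rose, none fell, and the median log2 ratio was 1.44. For comparison, 4.08% of all tested genes rose. Of the 140, 12 were under 10 CPM in 0-UMI cells and passed the filter through the class, so they had to differ. They include Oasl1, Oasl2, Oas3, Ifitm3, Parp12, Dhx58, Ifi211, Slfn9 and Cxcl10, whose values below are a description. With the filter set on 0-UMI cells alone, 291 genes were called higher and 33 lower. Higher calls were then 24 of 26 antiviral effectors (median 2.13), 4 of 7 sensors (0.87), 5 of 5 PARP and DTX3L genes (2.08), 7 of 7 p200 genes (2.51) and 4 of 4 Schlafen genes (2.37), and those of the ISG15, GTPase and class I lists stayed at 6 of 6, 14 of 14 and 18 of 19. Genes in families of near copies (the Ifit, Gbp, p200, Schlafen, Oas, Tgtp and class I H2 genes) may share reads, so single values in these families are uncertain.

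Of the ligands, Ifng alone was seen. Ifnb1, 5 interferon alpha genes, Ifne, Ifnk, Ifnl2 and Ifnl3 had 0 UMIs in both classes of every library. For Ifnb1 the exact Poisson upper bounds in members were 8.29, 13.8, 10.5 and 7.57 CPM. Ifng, encoding interferon gamma, had 13, 0, 1 and 1 UMIs in members, 29.2, 0, 2.83 and 2.05 CPM, against 19.3, 3.46, 16.0 and 5.37 CPM in 0-UMI cells. The exact Poisson interval of the 12-day liver members, 15.6 to 49.95 CPM, spans the 0-UMI value. None of the 11 ligands was abundant enough to be tested.

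No receptor or kinase passed the test, in 8 tested, and their median log2 ratio was 0.10. Of all genes tested, 4.08% were called higher and 0.538% lower, so with 8 genes the lack of calls does not set them apart. Ifnar1, a type I receptor chain, stood at 74.1, 97.2, 76.5 and 90.3 CPM in members and 75.8, 82.6, 108 and 80.6 CPM in 0-UMI cells (log2 ratio 0.06 ± 0.15). Ifngr1, the gamma receptor chain, gave 0.19 ± 0.08 and the shared kinase Jak1 0.06 ± 0.09. The widest value was that of Jak2, 0.65 ± 0.25 with an adjusted p of 0.206.

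Of 10 tested transcription factors of the pathway, 7 rose, with a median log2 ratio of 1.0. Irf7, the factor that amplifies type I interferon production, stood at 488, 400, 669 and 556 CPM in members and 38.8, 34.1, 81.1 and 55.2 CPM in 0-UMI cells. That is a log2 ratio of 3.48 ± 0.10 (adjusted p = 1.07e-18), and the lowest member value was far above the highest 0-UMI value. The partners Stat2 and Irf9 were higher by 2.36 ± 0.17 and 1.5 ± 0.14 on the log2 scale. Irf9 reached 148, 220, 241 and 181 CPM against 56.7, 55.2, 90.5 and 93.1, with no overlap between the classes. Irf8, Irf1 and Irf2 rose less, by 1.14, 0.85 and 0.58. Irf3, which is activated by phosphorylation and not by induction, gave -0.31 ± 0.19 and was not called, nor were Irf5 at -0.04 and Stat3 at 0.33.

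The ISG15 system, which attaches the ubiquitin-like protein ISG15 to other proteins, was raised as a whole: 6 of 6 genes rose, with a median of 2.68. Isg15 itself stood at 1894, 1016, 2035 and 1589 CPM in members and 40.4, 46.7, 61.2 and 87.2 CPM in 0-UMI cells, a log2 ratio of 4.90 ± 0.35 (adjusted p = 0.0155). The call was lost without 12-day spleen (adjusted p = 0.0782) and without 7-week liver (0.145), where the log2 ratio was 5.01 and 4.83. The E2 enzyme Ube2l6 gave 2.97 ± 0.17, the ligase Herc6 2.40, Trim25 1.89 and the E1 enzyme Uba7 1.26. Usp18, the protease that removes ISG15 and restrains the receptor, stood at 184, 191, 490 and 388 CPM against 3.55, 6.95, 28.2 and 28.6, a log2 ratio of 4.52 ± 0.44 (adjusted p = 0.0316). Its call too was lost without 12-day spleen or 7-week liver.

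**Figure D4:**
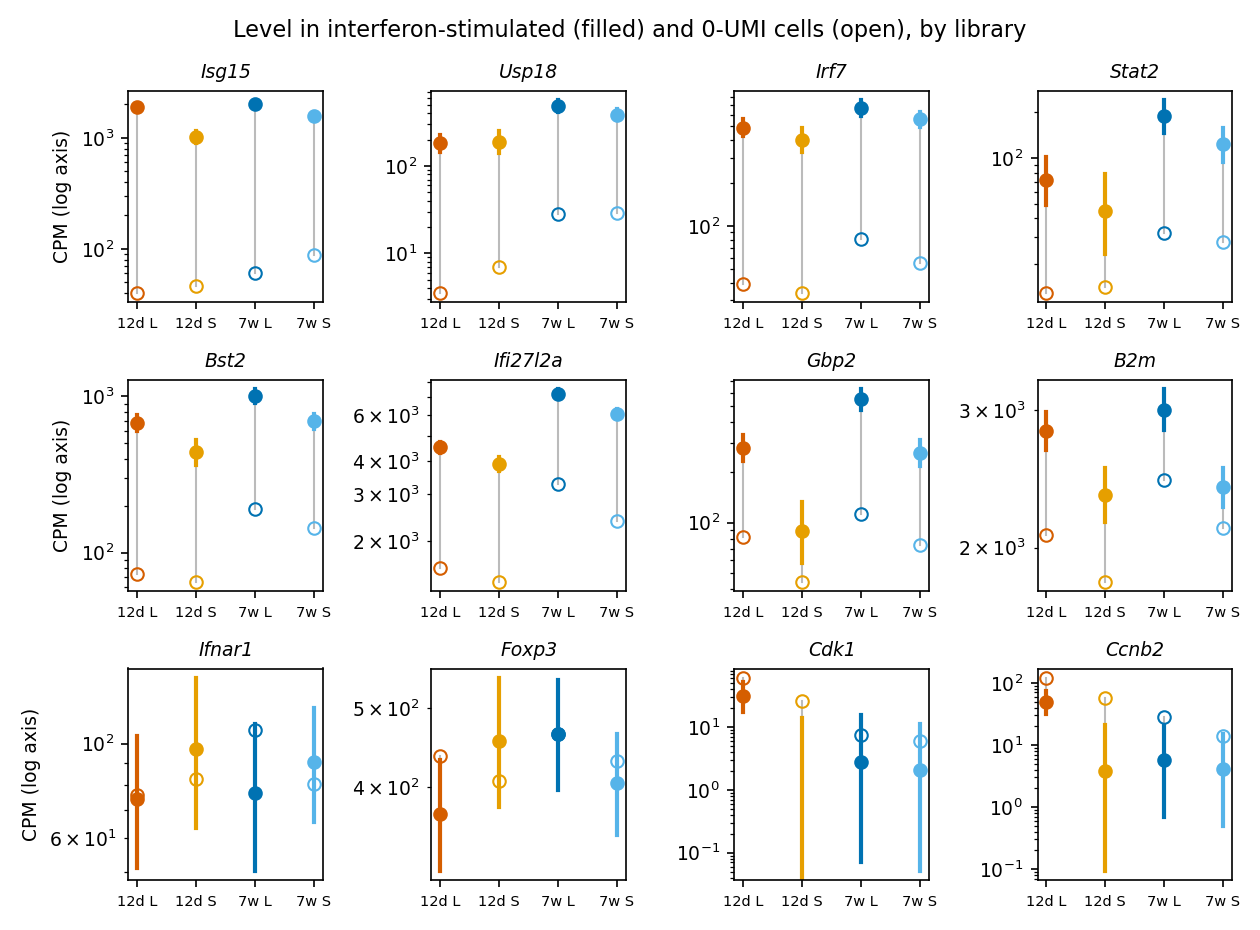
Level in CPM (log axis, own scale in each panel) of 12 genes in interferon-stimulated cells (filled, with exact Poisson 95% intervals) and 0-UMI cells (open) of each library, where 12d L and 12d S are 12-day liver and spleen and 7w L and 7w S the 7-week ones. Isg15, Usp18, Irf7, Stat2, Bst2, Ifi27l2a, Gbp2 and B2m are higher in members of all 4 libraries, Ifnar1 and Foxp3 lie on both sides, and Cdk1 and Ccnb2 are lower; Cdk1 had 0 UMIs in 12-day spleen members, so no point is drawn there.

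Antiviral effectors made up the longest list, with 29 of 31 tested genes higher and a median log2 ratio of 2.40. Of the 31, 5 were under 10 CPM in 0-UMI cells and passed the filter through the class. Their part in this count is a description. Bst2, the tetherin that holds budding virus at the membrane, stood at 676, 441, 1004 and 692 CPM in members and at 73.3, 65.3, 192 and 145 CPM in 0-UMI cells (2.73 ± 0.19, adjusted p = 0.00075). Ifi27l2a had the most UMIs of the list, at 4514, 3905, 7215 and 6063 CPM against 1580, 1405, 3271 and 2384, and its log2 ratio was smaller at 1.46 ± 0.06. The oligoadenylate synthetase family, of which some members make the messenger that activates RNase L, included Oasl2 at 4.54 ± 0.36, Oasl1 at 4.42 ± 0.54, Oas3 at 3.46 ± 0.33 and Oas1a at 2.42 ± 0.24. Oasl2 was scarce in 0-UMI cells of the 12-day libraries, at 0.843 and 0.718 CPM, and stood at 33.7 and 33.6 CPM in their members. Eif2ak2, the kinase PKR that halts translation, gave 2.40 ± 0.14. Ifitm3, which blocks viral fusion, gave 3.53 ± 0.22 as a description, with 7.41, 4.83, 16.8 and 10.9 CPM in 0-UMI cells. Rtp4 gave 3.69 ± 0.38 (adjusted p = 0.0342). Of the 2 not called, Ifi27 gave -0.16 and Trim5 -0.29. Mx1 and Mx2, classic members of this group, have no row in the tables.

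Among sensors of foreign nucleic acid and their adaptors, 6 of 9 tested rose, with a median of 2.25, which was 0.87 with the filter on 0-UMI cells alone. The RIG-I-like receptors Ifih1, which encodes MDA5 (2.79 ± 0.20), and Ddx58, which encodes RIG-I (2.25 ± 0.13), were called, as was Zbp1, a sensor of Z-form nucleic acid (2.74 ± 0.09). Their relative Dhx58 (3.57 ± 0.22) passed the filter through the class, so its value is a description. Zbp1 stood at 571, 329, 771 and 462 CPM against 85.2, 65.9, 107 and 77.0. Myd88, the adaptor of Toll-like receptors, rose by 0.84 ± 0.19. The adaptor Mavs gave -0.29, Tmem173, which encodes STING, 0.27 and the DNA sensor Aim2 0.21, and these 3 were not called.

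The other inducible families moved nearly whole. All 6 of the PARP and DTX3L genes, which add or read ADP-ribose, rose with a median of 2.11, among them Parp14 at 2.16 ± 0.11 and Dtx3l at 2.05 ± 0.12. Parp12 passed the filter on low counts through the class, so its part in this count is a description. All 8 tested p200 genes, a cluster of DNA-binding proteins on chromosome 1, rose with a median of 2.55. Of these, Ifi211 stood at 0.246, 0.131, 2.58 and 0.467 CPM in 0-UMI cells and passed the filter through the class, so its call is a description. Ifi208 stood at 189, 131, 380 and 318 CPM against 21.5, 20.4, 52.0 and 45.9. Of 5 tested Schlafen genes on chromosome 11, 4 rose. Slfn5 led at 2.91 ± 0.12, and Slfn2, which keeps T cells quiescent, rose by 0.94 ± 0.07. Slfn9, at 0.96 ± 0.35, passed the filter through the class and was not called.

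Genes best known as gamma-interferon targets were raised too. All 14 GTPases of the guanylate-binding and immunity-related families, which attack pathogen vacuoles, rose with a median of 1.92. Gbp6 stood at 355, 157, 507 and 380 CPM in members against 50.5, 25.8, 102 and 65.2 (2.65 ± 0.11), and Gbp2 at 281, 89.7, 547 and 263 against 81.8, 44.5, 112 and 73.9 (1.93 ± 0.13). Irgm1 gave 2.44 ± 0.12 and Igtp 1.90 ± 0.09.

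MHC class I and its processing genes rose in small steps, 18 of 19 tested with a median of 0.57. B2m, the light chain of class I, stood at 2820, 2339, 3005 and 2390 CPM in members and 2076, 1810, 2440 and 2117 CPM in 0-UMI cells, a log2 ratio of 0.41 ± 0.05 (adjusted p = 1.58e-06). Tap1, which pumps peptides into the endoplasmic reticulum, doubled or more at 413, 318, 439 and 396 CPM against 189, 147, 211 and 184 (1.19 ± 0.08). The class I transactivator Nlrc5 gave 1.13 ± 0.15 and the immunoproteasome subunit Psmb9 0.93 ± 0.09. The trimming peptidase Erap1 was the 1 gene not called, at 0.33 ± 0.23.

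Of the 25 highest named genes, 6 lay outside the lists, and each belongs to a family with listed members. Ifit1bl1, a relative of Ifit1 in the same cluster, gave 3.54 ± 0.19, and Phf11a and Phf11c, of the Phf11 cluster on chromosome 14, gave 3.10 ± 0.21 and 2.75 ± 0.17. Iigp1, an immunity-related GTPase, gave 3.01 ± 0.13, Trim30d 2.81 ± 0.26 and the guanylate-binding Gbp10 2.75 ± 0.21. Trim30d stood at 2.91, 4.11, 12.7 and 14.4 CPM in 0-UMI cells and passed the filter through the class, so its ratio is a description. Runs of neighbouring genes were among the calls: 8 p200 genes on chromosome 1, 5 Gbp genes on chromosome 5 and 4 on chromosome 3, 5 Trim genes on chromosome 7 and 4 Schlafen genes on chromosome 11.

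**Figure D5:**
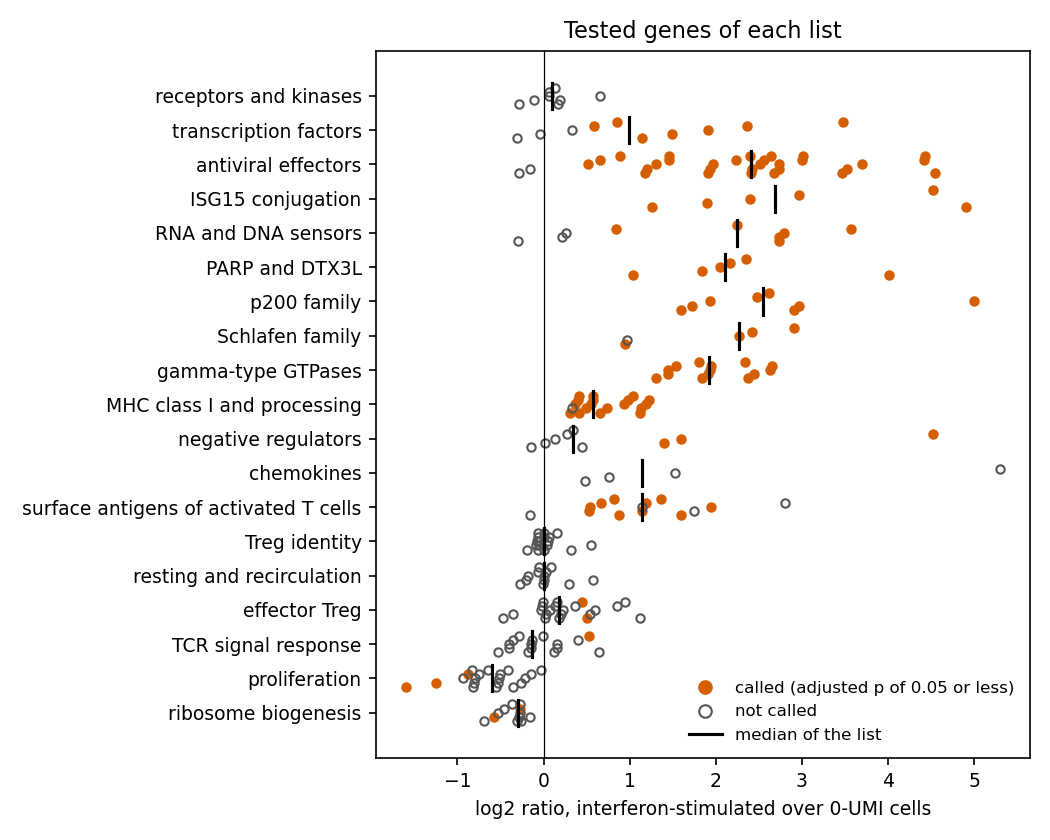
Log2 ratio of every tested gene (interferon-stimulated over 0-UMI cells, horizontal axis) by list, orange where called, open where not, with the median of each list as a black bar. Medians run from 2.68 for ISG15 conjugation to 0.57 for MHC class I among lists with most genes called, and lie at 0.01 for Treg identity and -0.60 for proliferation.

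Some brakes were called and none of 4 tested chemokines was, a number too small to set the chemokines apart from all genes. Of 9 negative regulators tested, 3 rose (33.3%, all genes 4.08%): Usp18, Cd274, which encodes PD-L1 (1.59 ± 0.30), and Socs1, an inhibitor of JAK kinases (1.40 ± 0.22). The phosphatases Ptpn2 and Ptpn6 gave 0.01 and -0.14. Cxcl10, which attracts CXCR3-bearing T cells, stood at 178, 258, 502 and 111 CPM in members against 3.72, 1.99, 21.3 and 6.48. Its log2 ratio of 5.30 ± 0.66 was the widest of all list genes, but its adjusted p was 0.0625. Cxcl10 was called in 5 of 16 alternatives and its highest adjusted p among them was 0.283. It passed the filter on low counts through the class, so its ratio and calls are a description. Ccl5, at 2260, 471, 363 and 49.3 CPM against 1457, 232, 331 and 99.0, overlapped between the classes and was not called.

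Among surface proteins, 10 of 14 rose, with a median of 1.15. Ms4a4b, a T cell membrane protein, stood at 1501, 1446, 2189 and 2010 CPM in members against 577, 857, 1147 and 921 (1.14 ± 0.08), and Ly6e gave 0.53 ± 0.05. Ly6a, which encodes Sca-1, was higher in every library, 2467, 815, 1749 and 1361 CPM against 678, 180, 804 and 468, but was not called (1.75 ± 0.23, adjusted p = 0.063). Fas gave -0.16.

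Treg identity genes did not pass the test in either direction, 0 of 17, with a median log2 ratio of 0.01. Of all genes tested, 4.08% were called higher and 0.538% lower. Foxp3 stood at 371, 456, 465 and 404 CPM in members and 437, 408, 465 and 431 CPM in 0-UMI cells (0.04 ± 0.08, adjusted p = 0.902). The interleukin-2 receptor chain Il2ra gave -0.04 ± 0.12 and the factor Ikzf2 (Helios) 0.05 ± 0.07. The checkpoint receptor Ctla4, at 923, 303, 386 and 273 CPM against 513, 298, 381 and 308, gave 0.32 ± 0.22. Resting and recirculation genes were likewise not called, 0 of 12 with a median of 0.00. Ccr7, a homing receptor for lymph nodes, gave 0.01 ± 0.19. At the stricter threshold of 5 UMIs Ccr7 turned to -0.55 with an adjusted p of 0.0491.

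Effector genes were mostly not called either, and of all genes tested 4.08% were called higher. Of 21 tested, Lag3, an inhibitory receptor, rose by 0.50 ± 0.14 (adjusted p = 0.0298, higher in 3 of 4 libraries) and the factor Maf by 0.45 ± 0.12 (adjusted p = 0.0159), and the median of the list was 0.18. These calls were fragile: Lag3 lost its call in 10 of 17 alternatives and Maf in 6. Gzmb, encoding granzyme B, stood at 1685, 355, 53.9 and 43.1 CPM in members against 730, 154, 62.5 and 19.2, a log2 ratio of 1.12 ± 0.22 with an adjusted p of 0.0561, and it passed the test in 9 of 17 alternatives. Of 16 genes that respond to T cell receptor signals 1 rose (all genes 4.08%), Cd69 at 0.52 ± 0.10, which is also an interferon target. The median of these genes was -0.14.

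Proliferation genes lay below 0 in all 20 cases, with a median of -0.60, and 3 passed the test. Of all 7255 genes tested, 3493 lay above 0 and 0.538% were called lower. Ccnb2, a mitotic cyclin, stood at 49.4, 3.74, 5.67 and 4.11 CPM in members and at 119, 56.5, 28.2 and 13.7 CPM in 0-UMI cells, a log2 ratio of -1.60 ± 0.27 (adjusted p = 0.000126). Those are 22, 1, 2 and 2 UMIs, so most of the member counts came from 12-day liver. Ube2c, of the mitotic ubiquitin machinery, gave -0.88 ± 0.21 and was lower in 3 of 4 libraries, and Cdk1, the mitotic kinase, -1.25 ± 0.37 with an adjusted p of 0.0496. Ccnb2 lost its call in 3 of 17 alternatives, Ube2c in 7 and Cdk1 in 10. The number of the 20 genes called lower was 3 in the fit as described, 2 with 0-UMI cells matched on UMIs and 0 without the block. It was 15 when thinned UMIs chose the cells of both classes. Raw UMIs of those cells were still summed, so that fit did not even out depth. Matching moved the median to -0.26 and the choice of cells by thinned UMIs moved it to -1.76. By cells at 2000 UMIs, 2 or more UMIs of the list were seen in 56.8%, 55.3%, 53.2% and 51.6% of members and in 72.2%, 68.3%, 68.0% and 62.3% of 0-UMI cells (unthinned 84.4%, 83.7%, 71.4% and 75.6% against 90.01%, 87.97%, 73.7% and 75.8%). Members were lower in all 4 libraries, and their exact intervals ended below the 0-UMI value in 12-day liver (44.7 to 68.2), 7-week liver (41.6 to 64.5) and 7-week spleen (42.5 to 60.7) and spanned it in 12-day spleen (40.1 to 69.8). By a narrower sign added after seeing the data, Mki67 or Top2a was seen in 9.46%, 2.13%, 8.86% and 1.61% of members and in 13.97%, 7.35%, 7.65% and 3.78% of 0-UMI cells (unthinned 15.6%, 6.12%, 14.3% and 5.19% against 23.1%, 14.4%, 10.5% and 6.4%). By this sign members were lower in 3 libraries and higher in 7-week liver, and the interval of each member share at 2000 UMIs spanned the 0-UMI value.

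Of 12 ribosome biogenesis genes 2 fell, and none of the 12 was above 0 (of all 7255 genes tested 0.538% fell and 3493 were above 0). Npm1, a nucleolar chaperone, stood at 694, 830, 661 and 786 CPM in members against 1009, 1044, 794 and 975, a log2 ratio of -0.27 ± 0.06 (adjusted p = 0.00831), and Nop58 gave -0.58 ± 0.15. Npm1 lost its call in 5 of 17 alternatives and Nop58 in 9. Penk, which encodes proenkephalin, was also among the 15 lowest named genes, at 160, 97.2, 0 and 37.0 CPM against 275, 234, 31.3 and 90.3 (-1.04 ± 0.20, adjusted p = 0.00493). Replication histones were there as well, with Hist1h1b at -1.29 ± 0.34 and Hist1h3e at -1.25 ± 0.33, and both lost their call in 8 of 17 alternatives. With 0-UMI cells matched on UMIs the log2 ratio of Penk was -0.21 with an adjusted p of 0.88, and 4 of 17 alternatives lost the call.

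The size of the contrast was compared between ages and between tissues by interaction terms, with 2 libraries a side. Between ages 7 genes were called (0.0965% of genes tested), 3 of them T cell receptor segments, and between tissues 6 (0.0827%), again with 3 receptor segments. Rtp4, a chaperone of cell surface receptors, rose from 23.5 and 16.9 CPM to 425 and 344 CPM at 12 days, and from 61.7 and 47.9 CPM to 462 and 423 CPM at 7 weeks. Members were thus at like levels at both ages while 0-UMI cells were higher at 7 weeks, and the contrast was larger at 12 days by 1.25 ± 0.19 on the log2 scale (adjusted p = 0.0148). Tnfrsf4, the costimulatory receptor OX40, was above 0-UMI cells in members at 12 days, at 1234 and 848 CPM against 843 and 735, and below them at 7 weeks, at 247 and 246 CPM against 367 and 560. The difference was 1.35 ± 0.18 (adjusted p = 0.00766).

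Between tissues, the contrast of Isg15 was larger in liver by 1.02 ± 0.16 (adjusted p = 0.00463) and that of Ifit2, an IFIT protein outside the rule, by 1.94 ± 0.40 (adjusted p = 0.0327). Ifit2 stood at 69.7 and 164 CPM in liver members and at 33.6 and 43.1 CPM in spleen members, with 7.76, 15.8, 11.1 and 18.7 CPM in the matching 0-UMI cells. DESeq2 called no gene between tissues, with an adjusted p of 0.0681 for Isg15 and 0.386 for Ifit2, and 82 genes had an unadjusted p under 0.05. By DESeq2, Rtp4 and Tnfrsf4 were called between ages, with adjusted p of 0.000839 and 0.000102.

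Within the class, interferon genes were mostly higher in liver than in spleen and at 7 weeks than at 12 days. The rule asked for 3 raw UMIs at any depth, and members had fewer UMIs at 7 weeks. Their medians were 4668 in liver and 4825 in spleen at 12 days, and 3151.5 and 3323 at 7 weeks. Median marker UMIs also differed, with 7 in 12-day liver members against 4 in 12-day spleen. At 7 weeks they were 6 against 5. Grouped by marker UMIs, members of both ages had more of the 49 summed interferon genes in liver at 3 to 10 UMIs. At 11 or more, these genes made up 1.97% of UMIs in 12-day liver but 2.45% in the 5 cells of 12-day spleen. The 7-week values were 2.73% and 2.71%. At every step the 7-week value was the higher in both tissues. What depth and marker UMIs add to the ratios between members was not tested. These ratios compare single libraries, so a gene was counted where its level was 2 or more times that of the other library and at least 50 CPM. Of 117 interferon list genes at that level, 16 were 2-fold higher in 12-day liver than in 12-day spleen and 0 lower, with a median ratio of 1.34; of all genes at that level 6.44% were higher and 4.13% lower. Of 125 genes at 7 weeks, 13 were higher in liver and 0 lower, with a median of 1.26 (all genes 3.71% and 2.87%). Going from 12 days to 7 weeks, 21 of 127 were higher and 5 lower in liver (median 1.35; all genes 8.54% and 8.75%), and 22 of 119 were higher and 4 lower in spleen (median 1.36; all genes 7.5% and 4.85%). Cells outside the class were counted the same way. For liver over spleen in 0-UMI cells, 7 of 73 list genes were 2-fold higher and 3 lower at 12 days (median 1.10; all genes 2.56% and 1.03%), and 2 of 90 were higher and 0 lower at 7 weeks (median 1.13; all genes 1.26% and 0.442%). For 7 weeks over 12 days in 0-UMI cells, 17 of 88 were higher and 3 lower in liver (median 1.33; all genes 4.72% and 4.63%) and 11 of 82 were higher and 1 lower in spleen (median 1.23; all genes 2.07% and 2.24%). A median above 1 with age was therefore also there in cells outside the class.

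Many of these differences were also there outside the class. The gamma-type GTPases had median ratios of 1.92 and 1.63 for liver over spleen and of 1.84 and 1.86 for 7 weeks over 12 days in members, and of 1.76, 1.45, 1.81 and 1.84 in 0-UMI cells. Gbp2 in members was 3.13 times as high in 12-day liver as in 12-day spleen (interval 2.01 to 5.07) and 2.08 times at 7 weeks (1.66 to 2.62); in 0-UMI cells it was 1.84 and 1.52 times as high. Oas1a, at 42.7 and 18.7 CPM in the 12-day members and 153 and 158 CPM in the 7-week members, was 3.59 times as high at 7 weeks in liver (2.09 to 6.41) and 8.46 times in spleen (3.47 to 26.8, from 5 UMIs in 12-day spleen). In 0-UMI cells the age ratios of Oas1a were 12.4 and 10.8. Cxcl10 was 4.53 times as high in liver as in spleen at 7 weeks (3.32 to 6.26) and 0.688 times at 12 days (0.492 to 0.965), against 3.29 and 1.87 times in 0-UMI cells. Against the trend, Irf8 in members was lower at 7 weeks, 0.217 times in liver (0.13 to 0.347) and 0.287 times in spleen (0.13 to 0.6), and in 0-UMI cells 0.252 and 0.61 times. Ccl5 was also lower at 7 weeks, 0.161 times in liver and 0.105 times in spleen, and in 0-UMI cells 0.227 and 0.426 times.

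The type I element was frequent in promoters of the genes that rose. Windows of 250 bases before to 50 after the start were read from RefSeq for 27025 gene symbols, and the element, on either strand, was in 3.49% of them. Among the 108 interferon list genes that rose, 86 had a promoter and 39 of these (45.3%) held it. The genes counted as risen here include those that passed the filter on low counts through the class. Of 156 matched genes that rose outside the lists 23 did (14.7%), and of 27 matched genes that fell 0 did. By list, it was in 9 of 10 matched GTPases, 6 of 8 p200 genes, 4 of 4 sensors, 2 of 4 Schlafen genes, 9 of 24 antiviral effectors, 2 of 6 transcription factors, 1 of 3 PARP and DTX3L genes, 4 of 15 class I genes, 1 of 5 ISG15 conjugation genes, 1 of 2 negative regulators and 0 of 6 surface antigens. TTCNNNGAA, in 8.47% of all promoters, was in 19 of the 86 list genes (22.1%) and in 6 of the 10 GTPases. The promoter of Bst2 is shown for its run of overlapping elements.
Bst2, chr8:71537560-71537629, minus strand: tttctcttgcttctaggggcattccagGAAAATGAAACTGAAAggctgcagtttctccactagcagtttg
It has 2 matches that overlap. A match describes letters in a window and not a bound site.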

How the data were processed

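Single-cell libraries from 4 sorted Treg samples were analysed, 1 per age and tissue. The deposited matrices hold raw UMI counts per gene and barcode (32285 genes); per the file headers they come from Cell Ranger 4.0.0, and per the submitters' processing notes mm10 and Seurat 4.0.2 were used. Which annotation release was used was not stated. Barcodes held 500 or more UMIs. Total UMIs were 32519356 in 12-day liver, 33813594 for 12-day spleen, 7442185 for 7-week liver and 20246352 for 7-week spleen, and members summed to 445050, 267619, 352741 and 487022 UMIs, so member levels carry the wider error.

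The class rule, the 20 gene lists and the tests were chosen with earlier results of these data known. UMIs were summed per library and class and tested with edgeR 4.0.16 in R 4.3.3 (TMM, robust quasi-likelihood, library as a block, mean CPM of 10 or more, Benjamini-Hochberg adjustment over 7255 genes); DESeq2 1.42.0 was an alternative. Replicates of an age and tissue do not exist, so p-values measure repetition over 4 libraries. Shares have exact Clopper-Pearson intervals, levels exact Poisson intervals and ratios between libraries conditional binomial intervals; ratios of shares have a log-scale interval, all at 95% and for counting error only. Thinning drew 2000 UMIs per cell without replacement. In the thinned fit these draws only chose the cells, and the raw UMIs of the chosen cells were summed. Tested on simulated data for this contrast (7120 genes), the fit recovered 100% of genes changed by 2 on the log2 scale in either direction, 78% of those raised by 1, 58% of those lowered by 1, and called 6 of 6924 unchanged genes. The simulation gave every gene the same dispersion, so these rates describe that setting and not the error rates in the real data.

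Named genes were the 5 marker genes, the 25 highest and 15 lowest log2 ratios among calls with 1 sign in all 4 libraries and 100 or more UMIs, tested interferon list members, up to 6 of each other list by level plus any called, and cell type markers. Gene positions are from GENCODE vM21, promoters from RefSeq GRCm38.p6. Barcodes were not regrouped by clustering, and doublets were kept in the main results. Results for some genes are not reported here.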

Additional observations from a re-analysis of the deposited data

Results flagged for a closer look

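In 4 genes of the lists the contrast of interferon-stimulated against 0-UMI cells differed between ages or tissues by an interaction test, with 2 libraries a side. Tnfrsf4 differed by 1.35 on the log2 scale between 12 days and 7 weeks, above 0-UMI cells at 12 days and below them at 7 weeks. Rtp4 differed by 1.25 between the same ages, with the larger contrast at 12 days. Isg15 differed by 1.02 between liver and spleen, with the larger contrast in liver. Ifit2 differed by 1.94 in the same direction. DESeq2 called the 2 age differences and neither of the tissue ones. No group had enough samples for a check of outlying samples.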

How the results depend on the processing

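The counts of calls were recomputed under 17 alternatives, the shares under those that change which cells are counted, the interaction calls by DESeq2 and without the filter, and the re-chosen marker genes with matched cells and with 1 library left out; 4 alternatives were added after seeing the data (barcodes rich in haemoglobin, for the calls and for the shares; the filter on 0-UMI cells alone; Mki67 or Top2a as the sign of cycling). Without the library block, which is the pairing of the 2 classes within a library, 119 genes were called higher and 0 lower, with 118 of the higher ones shared; the cause of this loss is the alternative's own construction, which puts differences between libraries into the error. Genes called lower were 19 by DESeq2, 96 without the filter on low counts and 95 with cells chosen by thinned UMIs. They were 62 without high doublet scores, 17 with 0-UMI cells matched on UMIs, and 24 to 44 with 1 library left out. The cause was not tested. Without the filter the median over all genes was -0.30, against -0.01. Interaction calls without the filter were 23 between ages and 20 between tissues, and DESeq2 called 0 between tissues. Ifit3 chosen without itself ranged from 6.32 to 7.30 with 1 library left out. The share in 12-day liver was 2.30% at 2 UMIs, 0.891% at 5 and 0.799% thinned; in 12-day spleen 1.62%, 0.310% and 0.320%; in 7-week liver 7.01% and 2.46% at 2 and 5 UMIs; in 7-week spleen 4.0%, 1.22% and 1.68%; the thresholds and the thinning move these shares by their construction. The liver to spleen ratio at 12 days was 2.87 at 5 UMIs and 2.50 thinned, the age ratio in liver 4.18 thinned, and the age ratio in spleen 3.93 at 5 UMIs and 5.25 thinned. Of 4304 values of 255 named genes, 3952 kept their side of the threshold, 242 lost and 109 gained a call, and Ccr7 reversed at 5 UMIs (-0.55). Uncalled genes could change sign and still count as kept, such as Ifnar1, which ran from -0.30 to 0.21. With 49 to 135 members a library, depth limits genes under about 10 CPM.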
